A study of Mus musculus with 18 samples.

Results

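The oligoadenylate synthetase (Oas) and oligoadenylate synthetase-like (Oasl) gene clusters of mouse chromosome 5 were examined in 18 RNA sequencing libraries of 3T3-L1 adipocytes. The clusters were taken by position. They hold the gene models of the deposited count table that lie whole between positions 115340000 and 115395000 (Oasl) or between 121175000 and 121360000 (Oas) of build mm9, with at least 20 reads summed over all libraries. The rule found 11 gene models of 27473 in the table, 2 in the Oasl window and 9 in the Oas window, and no gene model in either window fell under 20 reads.

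3T3-L1 is a mouse fibroblast line that can be turned into fat cells, and all libraries came from differentiated cells at passage 15 that carried a lentiviral vector. Interferon regulatory factor 3 (IRF3), the protein whose level was altered, is a transcription factor that is activated by sensors of microbial products. In the first arm, 3 libraries came from cells labelled as overexpressing Irf3 (Irf3_2D) and 3 from cells with a green fluorescent protein vector as the control (EGFP). The labels do not explain "2D" and do not say whether the protein was an altered form. In the second arm, cells carried a short hairpin RNA against luciferase as the control (shLuc) or against Irf3 (shIrf3), without or with LPS (lipopolysaccharide from the bacterial outer membrane, which Toll-like receptor 4 senses), with 3 libraries in each of the 4 groups. Transduction lasted 6 days, and the protocol states another 6 days with LPS for the knockdown cells, so the effects of LPS and of a longer culture cannot be told apart where the untreated cells were harvested earlier. No label says whether the 3 replicates of a group were grown apart. The p-values therefore reflect only how far these libraries spread, and part of that spread may be technical. The table pairs no identifier with a gene symbol, so the level of Irf3 and markers of adipocytes or other cells were not checked here. In these bulk libraries, fewer cells of a type and less RNA per cell cannot be told apart.

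Oligoadenylate synthetases are enzymes that are switched on by double-stranded RNA and join ATP into short chains of adenylate. Those chains activate the ribonuclease RNase L, which cuts viral and cellular RNA and so limits viral growth. The OAS-like proteins share the synthetase fold, though not all of them keep its activity, and the family as a whole is known as a set of interferon-stimulated genes, some of which IRF3 can also activate without interferon. In mice the Oas1 genes were multiplied by tandem duplication, and several copies are thought to have lost enzyme activity.

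RefSeq lists 12 genes with Oas or Oasl symbols on chromosome 5 of build GRCm38.p6, 2 named Oasl and 10 named Oas. In order along the chromosome they are Oasl2 and Oasl1, and then Oas2, Oas3, Oas1e, Oas1c, Oas1b (a transcribed pseudogene), Oas1f, Oas1h, Oas1g, Oas1a and Oas1d. Which gene model of the mm9 table stands for which of these genes is not given in the sources used here, so each gene model is called by its own identifier and position.

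Promoter sequence was available for 8 of these genes (Oasl2, Oasl1, Oas3, Oas1c, Oas1f, Oas1h, Oas1g and Oas1a), from 250 bases before to 50 bases after the RefSeq start. They are shown because the IRF proteins are known to bind repeats of GAAA, the core of the interferon-stimulated response element. The spaced pair GAAANNGAAA was searched on both strands and was present in 4 of the 8 promoters, against 3.44% of all 32851 RefSeq promoters of the same length. The spaced triple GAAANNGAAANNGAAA, each copy of which also contains the pair, was present in 3 of the 8 and in 0.116% of all promoters. One stretch of 60 bases is printed for each of the 4, read 5′ to 3′ on the strand of the gene (GRCm38.p6, minus strand in each case), with the bases that match in capitals.
Oas3, chr5:120777701-120777760: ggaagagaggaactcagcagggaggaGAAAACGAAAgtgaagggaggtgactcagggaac
Oas1c, chr5:120812575-120812634: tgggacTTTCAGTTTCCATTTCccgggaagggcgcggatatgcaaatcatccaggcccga
Oas1g, chr5:120887614-120887673: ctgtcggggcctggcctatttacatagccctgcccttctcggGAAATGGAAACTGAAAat
Oas1a, chr5:120907530-120907589: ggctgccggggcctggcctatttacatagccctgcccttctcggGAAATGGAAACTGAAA
In Oas1c the match lies on the opposite strand. In Oas1a, 15 bases of the stretch shown lie inside a RefSeq gene with an Oas or Oasl symbol. They are at the end next to the start, so most of the match lies inside that gene as listed. Overlap with other genes was not checked. The match begins 114 bases before the start in Oas1c and 18 and 20 bases before it in Oas1g and Oas1a, where it ends within 5 bases of the start. The promoters of Oas1g and Oas1a shared an unbroken run of 73 identical bases, while the longest run in any other pair of the 8 promoters was 21 bases (Oas1f and Oas1h). A match of these letters is a description and not a binding site. None of the 11 gene models matched the promoter table by identifier, so no promoter was set against a measured value.

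In the Oasl window, uc008zcu.1 (115346943 to 115362254) and uc008zcv.1 (115373249 to 115387920) both lay on the plus strand and had 6 exons each. In the Oas window, uc008zhy.1 (121180342 to 121199857, 12 exons) and uc008zhz.1 (121203107 to 121227668, 16 exons) lay side by side on the minus strand. They were followed by uc008zib.2 (121236321 to 121245539, 6 exons) and uc008zid.1 (121250208 to 121262523, 7 exons), also on the minus strand. Next came a plus-strand group of 6-exon gene models, uc008zie.1 (121262644 to 121274169), uc008zig.2 (121297376 to 121307995) and uc008zih.1 (121311431 to 121323514). The window ended with uc008zii.1 (121326151 to 121337607) and uc008zij.2 (121346266 to 121357534), on the minus strand with 7 exons each. The gene models uc008zid.1 and uc008zie.1 stood head to head, with 120 bases between them. The library kit does not mark the strand, and near-identical copies share reads that the counting could lose or split, so the division of reads among members of the Oas window is uncertain.

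**Figure D1:**
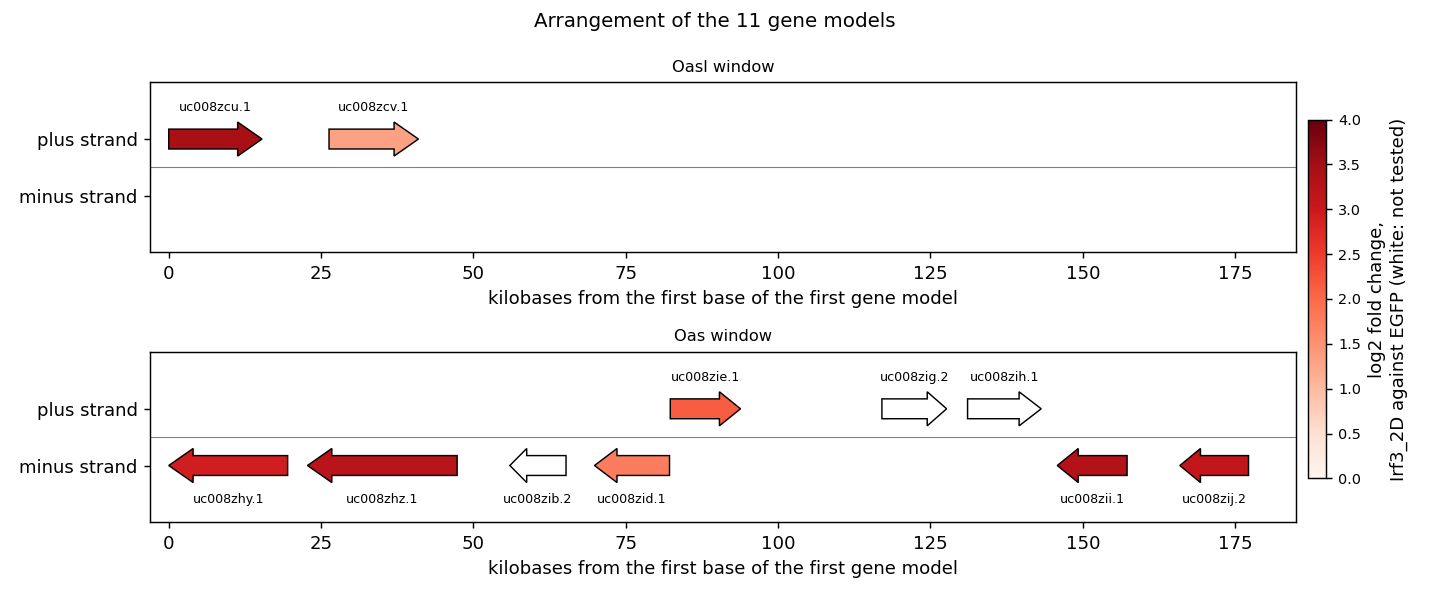
Position and strand of the 11 gene models in each window, in kilobases from the first base of the first gene model, coloured by the fitted log2 fold change of Irf3_2D against EGFP. The 8 coloured gene models lie between 1.32 and 3.44, and the 3 white ones had too few reads to be tested.

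Read numbers set which gene models could be tested. Libraries held 22143302 to 34368259 counts over all gene models, of which 309 to 12997 fell on the 11 members together. Over the 18 libraries the members ranged from 40 reads (uc008zib.2) to 14289 reads (uc008zcu.1). The low-count filter kept 8 in both fits and removed uc008zib.2, uc008zig.2 (59 reads) and uc008zih.1 (67 reads). The 3 removed members had at most 7, 9 and 21 reads in any library. Levels are given as CPM (read counts scaled to a common library size) after trimmed-mean (TMM) scaling, and levels of different gene models are compared per kilobase of exon.

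With overexpression of Irf3, every member that could be tested was higher in all 3 Irf3_2D libraries than in all 3 EGFP libraries, by 2.50-fold to 10.9-fold in the fit. After adjustment over all gene models 3 of the 8 rose, uc008zcv.1 of the Oasl window and uc008zhz.1 and uc008zid.1 of the Oas window, and none fell. The other 5 also had an unadjusted p under 0.05, as did 8 of 8 in all, against 1512 of all 13931 gene models tested. Of all gene models, 0.811% were called higher and 8.35% were higher without overlap. The EGFP library of replicate 1 was the highest of its group for 8 of 8 members.

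The member with the most reads, uc008zcu.1 (Oasl window), was at 24.1, 3.15 and 3.23 CPM in EGFP replicates 1 to 3 and at 156.1, 62.0 and 112.6 CPM in Irf3_2D. The groups did not overlap, EGFP replicate 1 stood far above the other 2 controls, and Irf3_2D replicate 2 was the lowest of its group. The fitted difference was 3.44 ± 0.81 (log2, SE, n = 3 against 3), with an edgeR quasi-likelihood adjusted p of 0.111. Its neighbour uc008zcv.1 was low in every library, at 0.805, 0.677 and 0.751 CPM in EGFP and 1.88, 1.96 and 1.77 CPM in Irf3_2D. Replicates of uc008zcv.1 lay close together in both groups, which did not overlap. It rose by 1.32 ± 0.23 (log2, SE), the smallest change of the 8, with an edgeR adjusted p of 0.0322.

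At the start of the Oas window, uc008zhy.1 was at 24.6, 2.33 and 3.49 CPM in EGFP and 103.3, 50.4 and 77.3 CPM in Irf3_2D. Its pattern over libraries was that of uc008zcu.1, with EGFP replicate 1 high and Irf3_2D replicate 2 the lowest of the 3. The difference of 2.93 ± 0.82 (log2, SE) had an edgeR adjusted p of 0.189. The next gene model, uc008zhz.1, was at 8.25, 1.79 and 1.77 CPM in EGFP and 45.3, 34.5 and 32.1 CPM in Irf3_2D. Here the Irf3_2D libraries were closer to one another and again above every control. It rose by 3.24 ± 0.53 (log2, SE; edgeR adjusted p = 0.0238).

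The head-to-head pair had the smallest fitted differences of the Oas window, a ranking that was not tested. For uc008zid.1 the EGFP libraries were at 5.44, 3.15 and 2.96 CPM and the Irf3_2D libraries at 13.1, 14.7 and 11.5 CPM. For uc008zie.1 they were at 7.57, 2.20 and 1.90 CPM and at 21.0, 12.4 and 18.1 CPM. Neither gene model had overlapping groups, and EGFP replicate 1 was less far from the other controls for uc008zid.1. The gene model uc008zid.1 rose by 1.76 ± 0.25 (log2, SE; edgeR adjusted p = 0.0180), and the value for uc008zie.1 was 2.14 ± 0.47 (edgeR adjusted p = 0.0729).

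At the far end of the window, uc008zii.1 was at 4.63, 0.305 and 0.663 CPM in EGFP and 18.5, 21.8 and 14.8 CPM in Irf3_2D. The last gene model, uc008zij.2, was at 12.2, 1.12 and 1.33 CPM in EGFP and 46.4, 46.0 and 34.2 CPM in Irf3_2D. In both, EGFP replicates 2 and 3 were at or below 1.33 CPM, replicate 1 stood well above them, and the groups did not overlap. The differences were 3.31 ± 0.75 for uc008zii.1 (log2, SE; edgeR adjusted p = 0.0923) and 3.12 ± 0.81 for uc008zij.2 (edgeR adjusted p = 0.152).

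**Figure D2:**
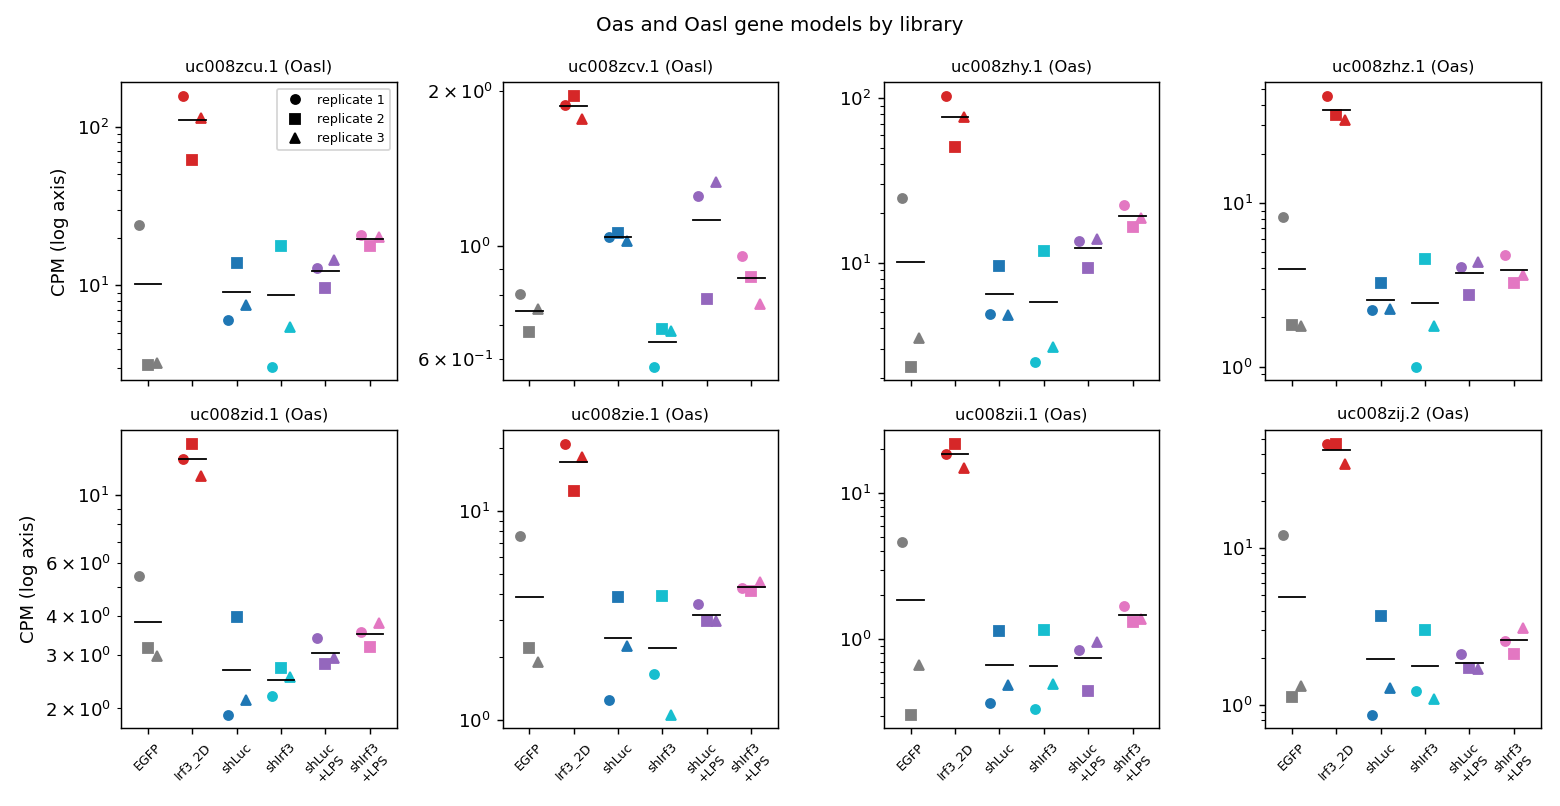
CPM of the 8 tested gene models in each of the 18 libraries (log axis, one panel per gene model), with the replicate number as the marker shape and a line at each group's mean. All 3 Irf3_2D libraries lie above all 3 EGFP libraries in each panel, and EGFP replicate 1, shLuc replicate 2 and shIrf3 replicate 2 are the highest of their groups.

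Across the 8 members the median difference was 3.02 (log2), against 0.02 over all 13931 gene models tested. The 3 calls are to be read against 0.811% of all gene models called higher, and the 8 without overlap against 8.35% of all gene models that were higher without overlap. Of the 37 tested gene models within 500000 bases of the windows, 0 were called by edgeR (6 had an unadjusted p under 0.05) and their median was 0.07. The number of calls depended on single libraries and on the test. Without EGFP replicate 1 it was 7 of the 9 members then tested, with differences of up to 5.28 ± 0.37 (log2, SE) for uc008zii.1, and 1.93% of all gene models were called in either direction. That library was the highest control for all 8 members of the main fit, so leaving it out enlarges their differences by construction. Leaving out EGFP replicate 2, EGFP replicate 3 or Irf3_2D replicate 1 gave 0, where 0.0496%, 0.0351% and 0.0918% of all gene models were called, against 1.45% in either direction with all 6 libraries. Calls were thus lost across the table and not among the members alone. Leaving out Irf3_2D replicate 3 gave 1 (0.388% of all gene models), and leaving out Irf3_2D replicate 2 gave 3 (7.18%). With all 6 libraries, DESeq2 called 5 members (3.45% of all gene models) and limma-voom 8 (1.74%).

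Among the 3 members with too few reads for the fit, uc008zih.1 had 1, 1 and 0 reads in the EGFP libraries and 21, 5 and 13 in the Irf3_2D libraries. The groups did not overlap, and the summed counts of 39 against 2, scaled for depth, gave a ratio of 19.0 (95% interval 4.92 to 162.5, for counting error only). The gene model uc008zib.2 had 5 reads in Irf3_2D against 6 in EGFP, and uc008zig.2 had 6 against 12. A difference was not detectable at this depth for either, with ratios of 0.812 (0.196 to 3.20) and 0.487 (0.150 to 1.40).

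Levels per kilobase show which of the 8 tested members were abundant in each group. In EGFP the means ran from 3.24 ± 3.85 CPM per kilobase for uc008zcu.1 (SD, n = 3) through 2.58 ± 3.35 for uc008zij.2, 2.28 ± 2.82 for uc008zhy.1, 2.11 ± 1.73 for uc008zie.1 and 1.68 ± 0.603 for uc008zid.1 down to 0.206 ± 0.0179 for uc008zcv.1. The first 5 did not differ beyond their spread. In Irf3_2D, uc008zcu.1 was again the highest at 35.1 ± 15.0 CPM per kilobase, followed by uc008zij.2 at 22.4 ± 3.67 and uc008zhy.1 at 17.3 ± 5.95, and these neighbours in the order did not differ beyond their spread either. The gene models uc008zie.1 (9.30 ± 2.37), uc008zii.1 (8.95 ± 1.70), uc008zhz.1 (7.39 ± 1.39) and uc008zid.1 (5.74 ± 0.693) formed the middle of the order, and uc008zcv.1 was the lowest of the 8 at 0.517 ± 0.0270.

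In the hairpin arm uc008zcu.1 was again the highest per kilobase in each group, with lower levels than in Irf3_2D. The arms differ in vector and were not tested against each other. The mean of uc008zcu.1 was 2.91 ± 1.30 CPM per kilobase in shLuc (SD, n = 3), 2.77 ± 2.48 in shIrf3 and, under LPS, 3.93 ± 0.804 in shLuc against 6.22 ± 0.502 in shIrf3. That of uc008zhy.1 was 1.45 ± 0.613, 1.30 ± 1.17, 2.75 ± 0.573 and 4.32 ± 0.679 in the same order. The gene model uc008zij.2, next to the highest in Irf3_2D, was at 1.04 ± 0.817, 0.945 ± 0.564, 0.982 ± 0.127 and 1.37 ± 0.256. With LPS it lay below uc008zhy.1 by more than the spread in both hairpin groups, whereas without LPS they did not differ beyond their spread. The lowest tested member was again uc008zcv.1, between 0.180 ± 0.0166 in shIrf3 and 0.311 ± 0.0813 in shLuc with LPS. Of the members too low to test, uc008zih.1 had 0 to 3 reads in each hairpin library without LPS and 2 to 4 in each with LPS, and uc008zib.2 and uc008zig.2 had 0 to 9 reads.

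With the hairpin against Irf3 and no LPS, none of the 8 members passed the test. Their median difference was -0.11 (log2), against -0.02 over all 14970 gene models tested. The edgeR test called 0 of 8, against 8.56% of all gene models called in either direction. An unadjusted p under 0.05 was found for 1 of 8, against 3447 of all 14970 gene models, so not above the background. DESeq2 and limma-voom also called 0 members (10.5% and 8.34% of all gene models).

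The member with the unadjusted p under 0.05 was uc008zcv.1, at 1.04, 1.06 and 1.02 CPM in shLuc and 0.580, 0.687 and 0.681 CPM in shIrf3. Its groups did not overlap, in the lower direction, as was so for 10.2% of all gene models tested. The difference was -0.68 ± 0.25 (log2, SE; edgeR adjusted p = 0.107). The other 7 had groups that overlapped. For example, uc008zcu.1 was at 6.10, 13.8 and 7.52 CPM in shLuc and 3.07, 17.6 and 5.45 CPM in shIrf3, and uc008zhy.1 was at 4.89, 9.57 and 4.81 CPM and at 2.49, 11.8 and 3.06 CPM.

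Replicate 2 was the highest library of both groups for 8 of 8 members, by 1.04-fold to 3.46-fold over the mean of the other 2 in shLuc and by 1.09-fold to 4.25-fold in shIrf3. The ends of these ranges were uc008zcv.1 and uc008zij.2 in shLuc, and uc008zcv.1 and uc008zhy.1 in shIrf3. In EGFP, replicate 1 was higher by 1.13-fold (uc008zcv.1) to 9.96-fold (uc008zij.2). The log2 range between replicates exceeded the 95th percentile of 15083 gene models for 6 of 8 members in each of EGFP, shLuc and shIrf3, for 4 in shLuc with LPS, for 2 in Irf3_2D and for 0 in shIrf3 with LPS. The share of counts on mitochondrial gene models was 2.63% in EGFP replicate 1, 2.88% in shLuc replicate 2 and 7.17% in shIrf3 replicate 2, against 2.68% and 3.16%, 14.2% and 5.19%, and 6.53% and 6.64% in the other libraries of those groups. Its part in the result was not tested.

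With LPS, 7 of 8 members were higher with the hairpin against Irf3 than with the control hairpin, but none passed the test. Of all 14970 gene models, 7533 were higher. The members share libraries and followed one another over them, so they are not separate cases. The median difference was 0.49 (log2), against 0.00 over all gene models. The call rate was 0 of 8, against 8.20% of all gene models called in either direction. An unadjusted p under 0.05 was found for 1 of 8, against 3216 of all 14970 gene models, so not above the background. For 4 of 8 (uc008zcu.1, uc008zhy.1, uc008zie.1 and uc008zii.1) the groups did not overlap, as was so, in the higher direction, for 14.9% of all gene models. The member with the unadjusted p under 0.05 was uc008zii.1, at 0.845, 0.440 and 0.953 CPM in shLuc with LPS and 1.70, 1.32 and 1.38 CPM in shIrf3 with LPS. Each shIrf3 library stood above each shLuc library, and the difference was 1.02 ± 0.40 (log2, SE; edgeR adjusted p = 0.149). In uc008zcu.1 the values were 12.9, 9.58 and 14.5 CPM against 20.7, 17.7 and 20.1 CPM. That separation came with a difference of 0.69 ± 0.52 (log2, SE; edgeR adjusted p = 0.522). Fitted from these 6 libraries alone, a fit that the libraries without LPS do not enter, 4 of 8 were called, as were 19.4% of all gene models. DESeq2 and limma-voom, on all 12 libraries, called 0 members (9.81% and 8.07% of all gene models).

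LPS itself was compared within each hairpin. With the control hairpin, no member separated the groups: 0 of 8 lay higher without overlap, against 9.99% of all gene models, and 0 of 8 were called, against 8.72% in either direction. None had an unadjusted p under 0.05, as 3123 of all 14970 gene models did. DESeq2 and limma-voom called 0 members (10.2% and 8.53% of all gene models). The median difference was 0.29 (log2), against -0.01 over all gene models. The largest was that of uc008zhy.1, at 13.5, 9.27 and 13.9 CPM with LPS, where shLuc replicate 2 without LPS (9.57 CPM) reached into the range. That difference was 0.93 ± 0.52 (log2, SE; edgeR adjusted p = 0.366).

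With the hairpin against Irf3, all 8 members were higher with LPS on average, as were 7569 of all 14970 gene models. The median difference was 0.84 (log2), against 0.00 over all gene models. The edgeR test called 0 of 8, against 8.01% of all gene models in either direction. An unadjusted p under 0.05 was found for 4 of 8, against 3281 of all 14970 gene models. DESeq2 called 1 of 8 (9.73% of all gene models), a share near the background, and limma-voom 2 (8.06%). For 6 of 8 the groups did not overlap, against 13.0% of all gene models that were higher without overlap, the exceptions being uc008zhz.1 and uc008zij.2. The largest difference was again that of uc008zhy.1, at 22.4, 16.4 and 18.8 CPM with LPS. All 3 were above the highest library without LPS (11.8 CPM, replicate 2), and the difference was 1.75 ± 0.52 (log2, SE; edgeR adjusted p = 0.0792). The gene model uc008zii.1 was at 1.70, 1.32 and 1.38 CPM with LPS and 0.332, 1.15 and 0.492 CPM without it, a difference of 1.16 ± 0.41 (edgeR adjusted p = 0.105). The head-to-head pair also separated by LPS. The gene model uc008zid.1 was at 3.55, 3.18 and 3.82 CPM with LPS and 2.20, 2.72 and 2.53 CPM without it (0.54 ± 0.22, edgeR adjusted p = 0.148), and uc008zie.1 was at 4.29, 4.16 and 4.55 CPM against 1.66, 3.93 and 1.06 CPM (0.98 ± 0.42, edgeR adjusted p = 0.207).

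Calls for LPS in shIrf3 depended on shIrf3 replicate 2. Without it, 5 members were called, where 5.56% of all gene models were. Without shLuc replicate 2, 2 members were called for LPS in shIrf3 (14.7% of all gene models) and 1 for LPS in shLuc (14.0%), the latter a share near the background. With both libraries left out, 7 of 8 were called for LPS in shIrf3 and 5 of 8 for LPS in shLuc. For shIrf3 against shLuc with LPS, 3 of 8 were called. Of all gene models, 10.1%, 12.3% and 13.4% were called in these comparisons. The choice was made after the values of these libraries for these gene models were seen, and it enlarges the LPS differences by construction. It also narrows the spread that the fit shares over the groups. For shIrf3 against shLuc with LPS, uc008zcu.1 stayed at 0.69 (log2) while its SE went from 0.52 to 0.17. The largest difference with both left out was 2.83 ± 0.21 (log2, SE), for uc008zhy.1 with LPS in shIrf3.

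**Figure D3:**
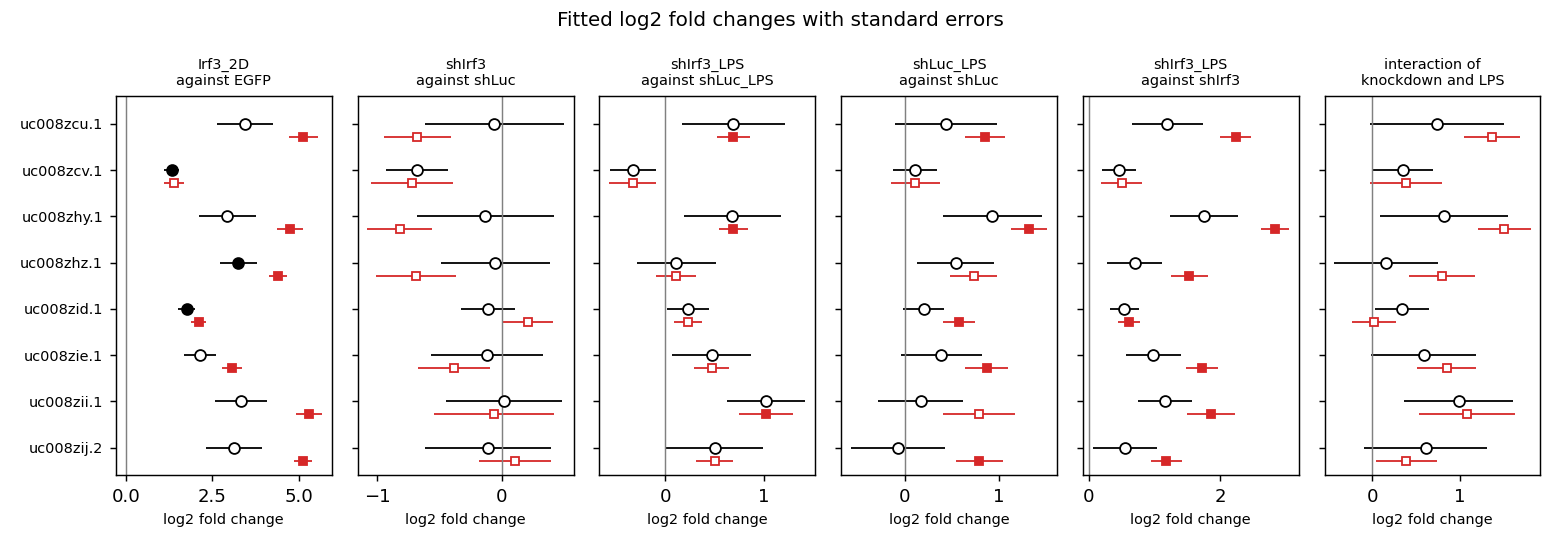
Fitted log2 fold change with its standard error for the 8 tested gene models in the 6 comparisons (black circles), with red squares for the fit without EGFP replicate 1 (first panel) or without shLuc replicate 2 and shIrf3 replicate 2 (other panels). Filled symbols passed an edgeR adjusted p of 0.05. With all libraries these are 3 gene models, all in the first panel, and the scale of each panel is its own. The libraries left out were the highest of their groups for all 8 gene models, and the fits that leave out other libraries are not drawn.

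The difference between the LPS responses with the 2 hairpins was tested as an interaction. All 8 members had a value above 0, as had 7957 of all 14970 gene models. The members ran from 0.16 ± 0.59 for uc008zhz.1 to 0.99 ± 0.62 for uc008zii.1 (log2, SE). Their median was 0.60, against 0.01 over all gene models. The edgeR test called 0 of 8, and 0% of all gene models passed. No member had an unadjusted p under 0.05, as 848 of all 14970 gene models did, and DESeq2 and limma-voom called 0 members (15 and 0 of all gene models). The LPS comparisons, the hairpin comparisons and the interaction share libraries, so their values for a member are not independent of one another.

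Members followed one another over the libraries, with uc008zcv.1 set apart. Over the 18 libraries, the 21 pairs that leave out uc008zcv.1 had a Pearson correlation of log2 CPM from 0.85 to 0.98, with a median of 0.94. With each group's mean removed, the range was 0.69 to 0.98 and the median 0.89. The 7 pairs with uc008zcv.1 ran from 0.73 to 0.84, and from 0.17 to 0.53 with group means removed. These are descriptions: the members share libraries and, in the Oas window, may share reads, and uc008zcv.1 had only 14 to 60 reads per library. Summed over each window, EGFP replicate 1 was at 24.9 CPM (Oasl) and 63.2 CPM (Oas), against 3.82 and 3.98 CPM and 11.1 and 12.2 CPM in the other controls. The Irf3_2D libraries ran from 63.9 to 157.9 CPM in the Oasl window and from 180.0 to 248.4 CPM in the Oas window.

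**Figure D4:**
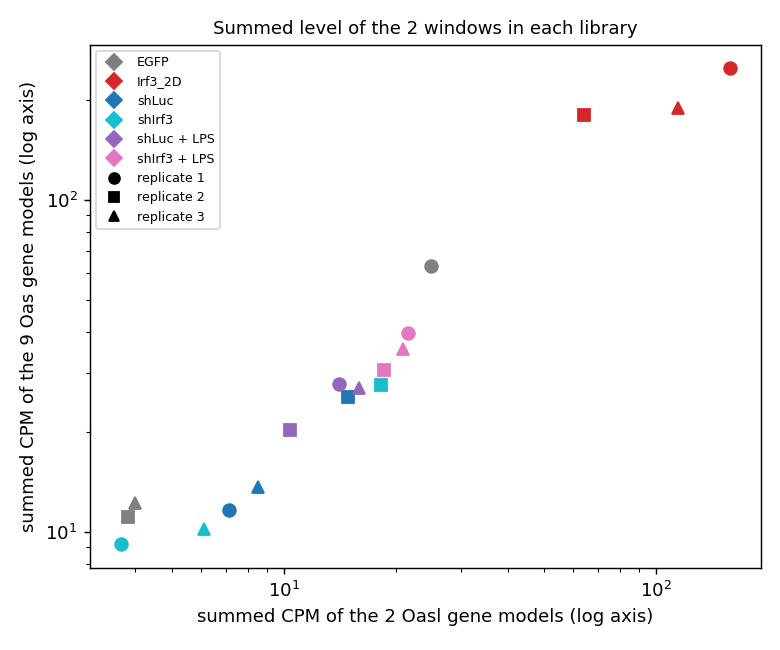
Summed CPM of the 2 Oasl gene models against the summed CPM of the 9 Oas gene models in each of the 18 libraries (both axes log), coloured by group with the replicate number as the marker. Both sums are high in the same libraries, and EGFP replicate 1 lies between the other controls and the Irf3_2D libraries.

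Some ratios between members within a library, picked after the levels were seen and given as descriptions only, differed between groups. The level per kilobase of uc008zhy.1 relative to uc008zcu.1 was 0.654 to 0.765 in the 6 hairpin libraries with LPS and 0.397 to 0.572 in the 6 without it, with no overlap. The EGFP libraries, also without LPS, ran from 0.523 to 0.763 and the Irf3_2D libraries from 0.467 to 0.574. The 6 hairpin libraries without LPS include replicate 2 of shLuc (0.490) and of shIrf3 (0.473). The ratio of uc008zij.2 to uc008zhy.1 was 1.06, 2.15 and 1.04 in Irf3_2D, and replicate 2 of that group thus had the far end of the Oas window high against its start. The ratio of uc008zid.1 to uc008zie.1 was 0.504, 0.958 and 0.514 in the same libraries, so replicate 2 stood apart there too.

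**Figure D5:**
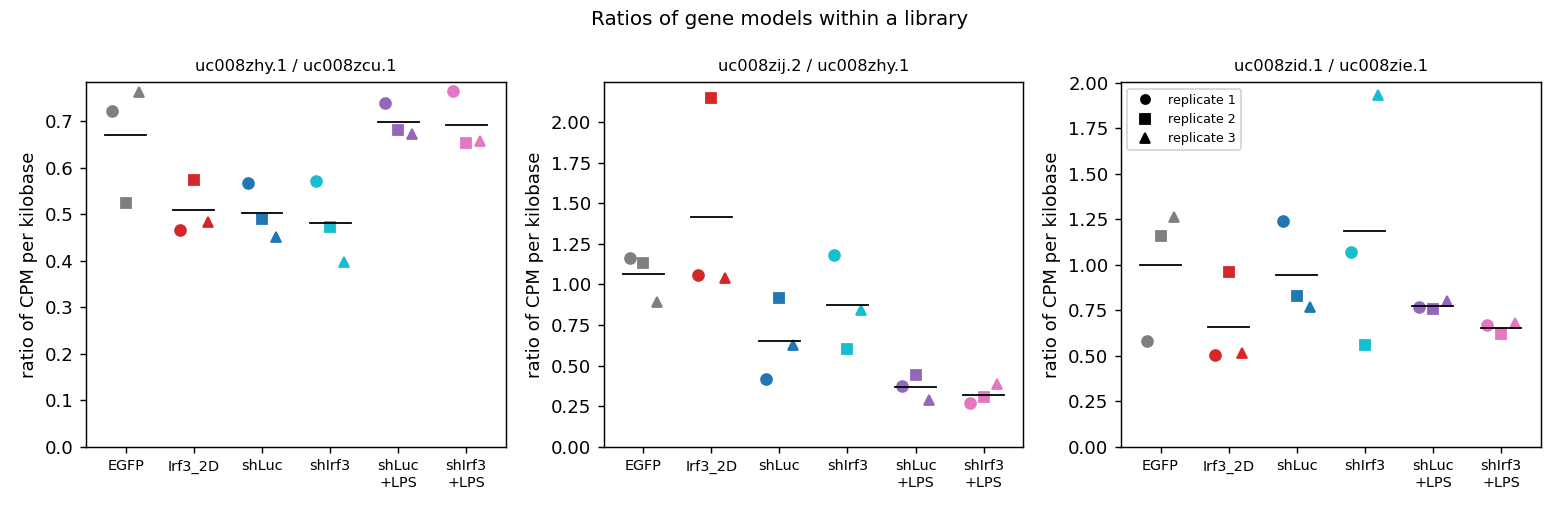
Ratio of CPM per kilobase between pairs of gene models within each library, by group, with a line at the group mean and the replicate number as the marker. The ratio of uc008zhy.1 to uc008zcu.1 is 0.654 to 0.765 in all 6 hairpin libraries with LPS, above the 6 without, and Irf3_2D replicate 2 stands apart in the ratio of uc008zij.2 to uc008zhy.1 (2.15).

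In each window the member with the highest mean CPM over the 18 libraries was taken (uc008zcu.1 and uc008zhy.1, not per kilobase). The gene models most like each were sought among the 15083 that passed the filter, both windows set aside, by Pearson correlation of log2 CPM. For uc008zcu.1 they were uc007mqp.1 (chromosome 11, 119322515 to 119352549, minus strand, 4 exons; r = 0.990) and uc007mqr.1 (chromosome 11, 119328536 to 119348731, plus strand, 17 exons; r = 0.987). Their spans lie over each other on opposite strands. Reads from any exon bases they share cannot be told apart in unstranded libraries, and overlap of their exons was not checked. For uc008zhy.1 they were uc007mqp.1 (r = 0.972) and uc007mqo.1 (chromosome 11, 119287376 to 119291618, plus strand, 4 exons; r = 0.969). The level of uc007mqr.1 was 151.4, 58.9 and 53.2 CPM in EGFP and 383.8, 244.7 and 306.8 CPM in Irf3_2D, with replicate 1 of EGFP again the highest control.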

How the data were processed

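The 18 libraries were assigned to 6 groups of 3 from the sample titles. The tools named in the submitters' processing notes are, for base calls, bcl2fastq 2.17.1.14; for alignment to build mm9, TopHat2 2.0.14; for handling of alignments, SAMtools 0.1.19 and Picard 2.2.4; for counting, featureCounts 1.4.6; and edgeR. No settings are given for them. The authors deposited raw read counts per gene model, with no normalization, and per the file headers the exon positions, strand and length of each. The rule for members uses only position and total reads, but the clusters and lists were chosen with earlier results of these data known. All 11 gene models of the windows are accounted for, and the gene models most like them were taken by the highest correlations. Of the identifiers, 0 occurred in the name tables, so no result of the interferon pathway list or of the cell type markers is given.

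The main test was edgeR 4.0.16 in R 4.3.3 (quasi-likelihood F test, robust glmQLFit), run on the whole count table after filterByExpr and TMM scaling. Its p-values were adjusted by Benjamini-Hochberg over every gene model in the fit, and 0.05 was the threshold. One fit held the 6 libraries of the overexpression arm and another the 12 of the hairpin arm. A standard error is the absolute log2 fold change over the root of F, and log2 CPM had a prior count of 2. Within every group, replicates differed beyond sampling noise, so each library was counted once. The steps were tested on simulated data. Alternatives used DESeq2 1.42.0, limma-voom (limma 3.58.1), other scaling and filters, other sets of libraries, the replicate number as a block, and each library left out in turn.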

Additional observations from a re-analysis of the deposited data

How the results depend on the processing

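For Irf3_2D against EGFP all 8 members kept a value above 0 under every alternative, while the number called was 5 by DESeq2 (3.45% of all gene models), 8 by limma-voom (1.74%), 8 with all 18 libraries in one fit (6.25%), and 0 to 7 when each library was left out in turn (0.0351% to 7.18%). For shIrf3 against shLuc with LPS it was 4 from only the 6 libraries compared (19.4%) and 3 (13.4%) with both replicate 2 libraries without LPS left out (chosen after seeing the data). For LPS in shLuc it was 5 with both left out (12.3%) and 0 to 1 with each library left out (5.30% to 14.0%). For LPS in shIrf3 it was 1 by DESeq2 (9.73%), 2 by limma-voom (8.06%), 2 from only the 6 libraries compared (2890 of all 14436 gene models, so near the background), 7 with both left out (10.1%) and 0 to 5 with each library left out (4.63% to 14.7%). Knockdown without LPS gave 0 calls under every alternative run, against 2.56% to 18.1% of all gene models. The interaction also gave 0 under every alternative run, where at most 0.105% of all gene models were called.

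Values that were not called and lay near 0 changed sign. For shIrf3 against shLuc the log2 fold change was -0.00 (uc008zii.1) and 0.03 (uc008zij.2) by limma-voom, and 0.21 (uc008zid.1), -0.06 (uc008zii.1) and 0.11 (uc008zij.2) with both libraries left out. Leaving out each library gave -1.10 to 0.37 for uc008zcu.1, -1.22 to 0.27 for uc008zhy.1, -0.88 to 0.29 for uc008zhz.1, -0.30 to 0.27 for uc008zid.1, -0.86 to 0.37 for uc008zie.1, -0.68 to 0.65 for uc008zii.1 and -0.75 to 0.75 for uc008zij.2. With LPS, uc008zhz.1 ran from -0.09 to 0.23. For LPS in shLuc, uc008zij.2 was 0.20 by limma-voom, 0.01 with library totals only, 0.03 with the replicate block and 0.79 with both left out, and leaving out each library gave -0.42 to 0.78 for it, -0.03 to 0.31 for uc008zcv.1 and -0.12 to 0.77 for uc008zii.1. The interaction ran from -0.19 to 0.99 for uc008zhz.1, from -0.03 to 0.53 for uc008zid.1 and from -0.23 to 1.25 for uc008zij.2. Apart from the fits with fewer libraries, the cause of these changes was not tested.

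Over all gene models that passed the filter, deviations of same-numbered libraries from their group means correlated by -0.19 to 0.22 between EGFP and Irf3_2D. Elsewhere they correlated by at most 0.09. Low values over all gene models cannot tell whether such libraries shared a batch, which was not tested. For the 8 tested members, replicate 2 was the highest library of both shLuc and shIrf3. The replicate block moved the calls for Irf3_2D against EGFP from 3 to 4, while those over all gene models went from 1.45% to 1.69%. The block left 0 members called for LPS and for knockdown, against 8.66% to 9.30% of all gene models. For the interaction it left 0 members and 0 of all gene models. It ended the call of uc008zcv.1 (edgeR adjusted p = 0.0614) and added uc008zcu.1 (0.0179) and uc008zie.1 (0.00356). With 3 libraries a group, small differences are not detectable, and the 3 lowest members could not be tested.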
